A study of Mus musculus with 12 samples.

Results

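The 10 genes described here are Npas4, Nr4a2, Ier2, Btg2, Gadd45b, Trib1, Rgs2, Arl4d, Nptx2 and Ptgs2, activity-induced effector genes of neurons. They were taken by symbol from the authors' 3 tables, which hold 23076 distinct symbols, and all 10 were found and tested in each table. Frontal cortex of 12 male mice was profiled by sequencing of polyadenylated RNA, with 4 animals aged 14 weeks in each of 3 groups. By the labels the groups are GluN1Cre, GluN1 and WT; the series title calls them Grin1 Cre rescue, Grin1 knockdown and wild type. Every animal of all 3 groups was an F1 hybrid of C57Bl/6 and 129/SvlmJ and received tamoxifen, a ligand that activates inducible Cre recombinases, starting at 10 weeks, as a 6 mg gavage plus roughly 14 mg taken with chow. The promoter that drives Cre, and the allele that lowers Grin1, are not given in the sources used here. By the group names GluN1Cre was the 1 group with Cre, so effects of Cre and of restored Grin1 cannot be told apart.

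Each table gives 1 FPKM per group (a level corrected for transcript length and library depth), so no spread between animals could be given and read depth is unknown. Each group is in 2 of the 3 tables, which were assembled and normalised separately, and its level is given from both where it matters. The 3 comparisons share their animals in pairs and are not independent of each other. A gene model, meaning a stretch of transcripts assembled by the authors and given a symbol, was called changed by the study's own threshold, a Cuffdiff p under 0.05 and a q (p adjusted over the whole table) under 0.10. Grin1 itself, the subunit that every NMDA receptor needs, stood at 78.0 and 86.7 FPKM in GluN1Cre, 56.7 and 65.7 FPKM in GluN1, and 138 FPKM in both tables of WT. The 8 excitatory cortical neuron markers were all tested, and the lowest level of any of their models was 4.146 FPKM, for a lesser model of Neurod2 in GluN1.

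NMDA receptors admit calcium when a synapse is active, and calcium-driven kinases and phosphatases carry that signal to the nucleus. The transcription factor CREB, which binds the cAMP response element (CRE), and its partners then switch on a rapid set of genes, several of which encode transcription factors, and a wider set of effectors that adjust synapses, G protein signalling and growth. Of the genes described here, Npas4, Nr4a2, Ier2 and Btg2 act on transcription or RNA turnover. Gadd45b, Trib1, Rgs2 and Arl4d regulate signalling, and Nptx2 and Ptgs2 encode a secreted synaptic protein and an enzyme of lipid signalling. Several, Npas4 and Ier2 among them, are themselves induced within minutes in stimulated neurons. The tables hold no stimulated samples, so induction itself was not measured.

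Promoters are shown for Arl4d and Nr4a2, which were lower than in WT, and for Btg2, which shares the full CRE with Arl4d but was not called. Each runs from 250 bases before to 50 bases after the RefSeq start (GRCm38.p6), 5′ to 3′ on the gene's strand, at chr11:101665291-101665590 (plus strand), chr2:57123954-57124253 (minus strand) and chr1:134079106-134079405 (minus strand). Capitals mark the short CRE, TGACG, on either strand and therefore also the full CRE, TGACGTCA, which holds a short one on each strand.
Arl4d: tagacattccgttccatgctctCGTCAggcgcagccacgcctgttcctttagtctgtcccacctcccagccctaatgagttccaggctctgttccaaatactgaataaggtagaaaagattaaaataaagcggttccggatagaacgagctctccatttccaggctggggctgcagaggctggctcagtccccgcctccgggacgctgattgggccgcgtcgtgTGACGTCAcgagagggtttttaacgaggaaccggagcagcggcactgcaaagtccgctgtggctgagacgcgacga
Nr4a2: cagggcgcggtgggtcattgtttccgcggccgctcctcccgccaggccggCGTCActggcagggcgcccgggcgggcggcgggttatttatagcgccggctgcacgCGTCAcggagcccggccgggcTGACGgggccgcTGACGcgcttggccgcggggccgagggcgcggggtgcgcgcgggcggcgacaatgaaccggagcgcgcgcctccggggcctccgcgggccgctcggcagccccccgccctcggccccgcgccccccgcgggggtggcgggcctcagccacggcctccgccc
Btg2: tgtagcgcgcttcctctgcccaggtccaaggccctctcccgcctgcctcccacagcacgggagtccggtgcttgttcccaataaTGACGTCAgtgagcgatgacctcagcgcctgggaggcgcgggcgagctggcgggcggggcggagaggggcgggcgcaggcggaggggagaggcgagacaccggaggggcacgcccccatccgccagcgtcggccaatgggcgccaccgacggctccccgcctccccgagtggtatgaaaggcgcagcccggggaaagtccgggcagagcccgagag

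The full CRE lay in the promoters of Arl4d (26 to 19 bases before the start) and Btg2 (166 to 159 bases before it), which are 2 of the 7 genes with a RefSeq promoter entry here, and in 1.79% of all 32851 promoters of the same length. The short CRE lay in 6 of the 7, all but Gadd45b, and in 20.8% of all promoters. Nr4a2 had 4 short CREs between 200 and 107 bases before its start and no full CRE in this window. The core TCGTG, read on either strand and known to be bound by NPAS4 with its partner ARNT, was present in Arl4d and Rgs2 and in 16.04% of all promoters. Of the 2 copies in Arl4d, 1 overlaps its CRE and the other ends just before it. The letters TATAA, on either strand, were present in Nr4a2, Gadd45b and Npas4 and in 24.9% of all promoters. The CArG box, the AP-1 letters TGANTCA and the NR4A letters AAAGGTCA were in none of the 7, and in 1.63%, 7.81% and 1.51% of all promoters. The 7 promoters held from 56.3% (Arl4d) to 81.7% (Nr4a2) G and C, against a median of 52.7% over all promoters. The shares were not matched for base composition, so an excess of any motif was not tested. Trib1, Nptx2 and Ier2 had no promoter entry. These are matches of letters, and no binding was measured.

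In WT cortex the genes spanned 3.59 to 28.1 FPKM. Nptx2 was highest, followed by Rgs2 (14.1 and 14.3 FPKM in the 2 tables), Arl4d (11.948 and 11.955 FPKM) and Nr4a2 (9.60 and 9.69 FPKM). Gadd45b, Npas4, Trib1, Btg2, Ier2 and Ptgs2 followed between 7.80 and 3.59 FPKM. Gadd45b had 7.07 and 7.80 FPKM, Npas4 6.39 and 6.53 FPKM, and Trib1 5.79 and 5.83 FPKM. Adjacent genes in this lower stretch stood close together, and with no values per animal their order was not tested. The order of 7 of the 10 genes was GluN1Cre below GluN1 below WT when the values of the 2 tables were averaged: Npas4, Arl4d, Gadd45b, Ier2, Nr4a2, Trib1 and Rgs2. For 2 of these the values in GluN1 overlapped those in WT: Npas4 (6.36 and 6.46 FPKM in GluN1) and Gadd45b (7.16 and 7.40 FPKM in GluN1). The share of all genes with this order was not computed, so the count only describes these genes. Nptx2 had the opposite order, and Btg2 and Ptgs2 had neither. For 6 genes (Nptx2, Arl4d, Ier2, Nr4a2, Trib1 and Rgs2) the table-to-table values of each group were separate from those of the other groups, although Rgs2 in GluN1Cre (12.7 and 12.9 FPKM) nearly touched Rgs2 in GluN1 (12.9 FPKM in both tables). Both values of a group come from the same 4 animals, so being separate says nothing of the spread between animals. Ier2 was separate although its Cuffdiff p in GluN1 over WT was 0.788. The share of all genes that were separate in this way was not computed. The same group's level differed between tables by a median of 0.01 to 0.02 on the log2 scale for these genes, and by at most 0.20. Over all genes with a single tested model in each table and a mean of at least 1 FPKM, that median was 0.0071 to 0.019. Groups with small differences can therefore be separate in this way.

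**Figure D1:**
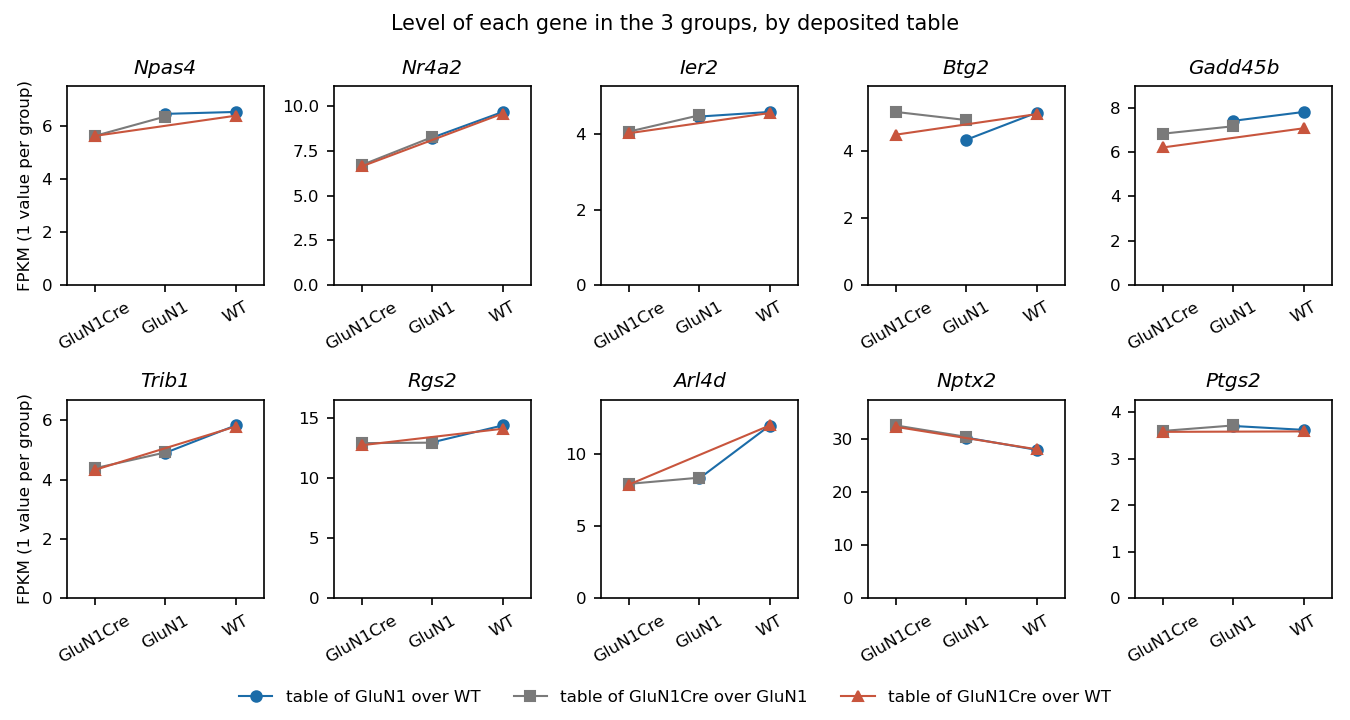
FPKM of the 10 genes (y axis, from 0) in GluN1Cre, GluN1 and WT cortex (x axis), with 1 symbol per group and deposited table and a line joining the 2 groups of a table. Across the tables Arl4d, Nr4a2, Trib1, Ier2 and Rgs2 are lowest in GluN1Cre and highest in WT, and Nptx2 runs the other way. The GluN1 level of Btg2 differs between tables (4.33 and 4.92 FPKM).

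GluN1 against WT addresses what changes in cortex with reduced Grin1. Arl4d fell: of the 11 models of the 10 genes, it was the 1 called, and the other 10 were not called. That is 9.09% of the models, against 2.52% of all 18417 tested models called in either direction and 0.858% called lower. Fold directions were negative for 8 models and positive for 3, with a median log2 fold of -0.08, against -0.0033 over all tested models, of which 51.2% were negative. Unadjusted p was under 0.05 for 3 of the 11. With p taken from the deposited test statistic instead, 0 of the 11 were called. Over all tested models that statistic had a median size of 0.497 of the deviate a normal distribution gives for the same p. Which scale is right is not known, so this count cannot decide whether the call holds. The share of all tested models called that way was not computed.

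Arl4d encodes a small GTPase of the ARF-like family that acts at membranes and on the actin cytoskeleton. Its gene has a single annotated transcript at chr11:101665541-101667832 on the plus strand of GRCm38 in GENCODE M21, exactly the span the authors assembled. It stood at 8.29 FPKM in GluN1 against 11.9 FPKM in WT, which is 69.4% of the WT level (log2 fold -0.53, p = 5e-05 and q = 0.00456 in the authors' deposited table). Among tested models at the same range of level (3.67 to 29.1 FPKM), 0.342% had a lower fold. Arl4a and Arl4c, its closest relatives, had log2 folds of 0.05 and -0.09 and were not called.

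Trib1 and Nr4a2 were lower in GluN1 by a size that did not pass the adjusted threshold. Trib1, a pseudokinase that steers proteins to ubiquitin ligation, had 4.90 FPKM in GluN1 and 5.83 FPKM in WT (log2 fold -0.25, p = 0.0147, q = 0.323 in the authors' deposited table). Nr4a2 (Nurr1), an orphan nuclear receptor, had 8.25 FPKM in GluN1 and 9.69 FPKM in WT (log2 fold -0.23, p = 0.0146, q = 0.321 in the authors' deposited table). At this range of level the smallest fold called in this table was 0.25 in size, just above theirs. The main model of Btg2, an antiproliferative cofactor of mRNA deadenylation, had 4.33 FPKM in GluN1 and 5.14 FPKM in WT (log2 fold -0.25, p = 0.0564 in the authors' deposited table).

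The remaining genes showed smaller folds, none called. Rgs2, which speeds the shut-off of G proteins of the Gq class, had 12.9 FPKM in GluN1 and 14.3 FPKM in WT (log2 fold -0.15, p = 0.0845 in the authors' deposited table). Nptx2 (Narp), a secreted pentraxin that gathers AMPA receptors at synapses onto interneurons, had 30.3 FPKM in GluN1 and 28.0 FPKM in WT (log2 fold 0.11, p = 0.173 in the authors' deposited table). Npas4, a neuronal transcription factor induced by calcium entry, was at nearly the same level in these groups, with 6.46 FPKM in GluN1 and 6.53 FPKM in WT (log2 fold -0.02). Log2 folds were -0.08 for Gadd45b, a stress-response protein linked to DNA demethylation, -0.04 for Ier2, a rapidly induced nuclear protein, and 0.03 for Ptgs2, the inducible cyclooxygenase. A further model of Btg2, at 0.620 FPKM in GluN1 and 0.483 FPKM in WT, had a log2 fold of 0.36 and p = 0.482 in the authors' deposited table.

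**Figure D2:**
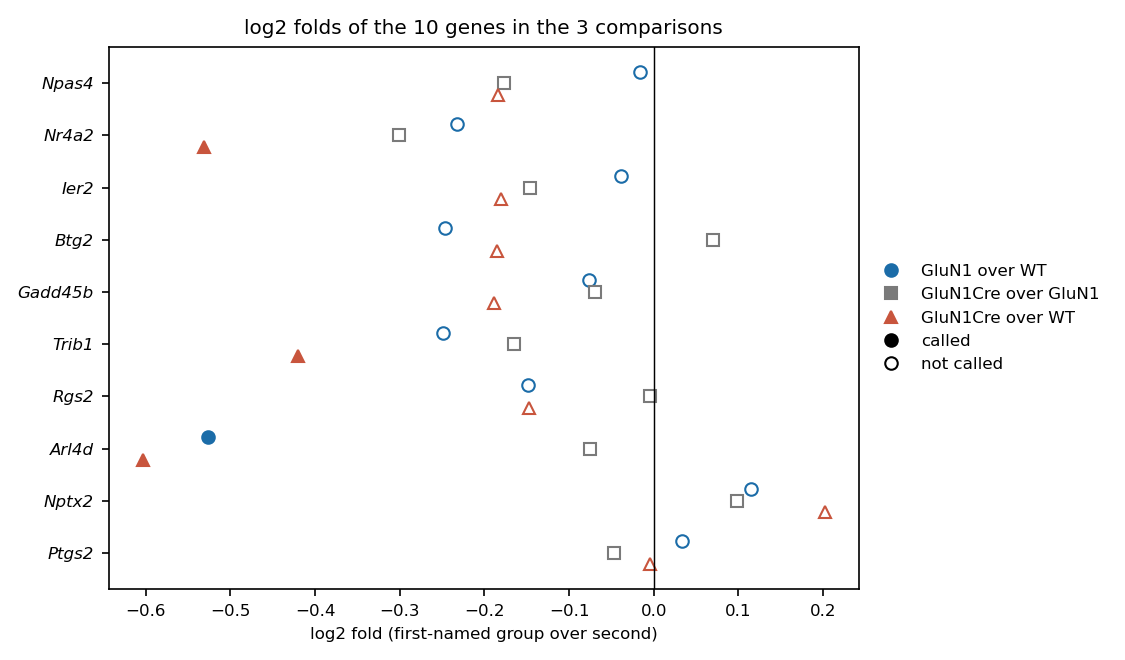
log2 folds (x axis) of the highest model of each gene (y axis) in the 3 comparisons; filled symbols were called at p under 0.05 and q under 0.10, open symbols were not. Arl4d is filled in both comparisons with WT, Nr4a2 and Trib1 in GluN1Cre over WT, and no symbol is filled in GluN1Cre over GluN1.

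GluN1Cre against GluN1 addresses what changes when Grin1 is partly restored in adults. None of the 10 genes was called by Cuffdiff, and 1 had an unadjusted p under 0.05. Over the whole comparison 0.689% of 18430 tested models were called. Arl4d, the gene called in GluN1 over WT, had 7.92 FPKM in GluN1Cre and 8.34 FPKM in GluN1 (log2 fold -0.08, p = 0.516 in the authors' deposited table). Of the 10 folds 8 were negative and 2 were positive, with a median of -0.07 against -0.0056 over all tested models, of which 52.8% were negative.

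The gene with a p under 0.05 was Nr4a2, at 6.72 FPKM in GluN1Cre and 8.28 FPKM in GluN1 (log2 fold -0.30, p = 0.0023, q = 0.251 in the authors' deposited table). An approximate 95% interval implied by that p and a normal distribution runs from -0.50 to -0.11, and the one implied by the deposited test statistic from -0.69 to 0.08. Trib1 had 4.39 FPKM in GluN1Cre and 4.92 FPKM in GluN1 (log2 fold -0.17, p = 0.105 in the authors' deposited table). Npas4 and Ier2 had log2 folds of -0.18 and -0.15 (p = 0.279 and 0.306 in the authors' deposited table). The direction for these 4 genes led away from the WT level.

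Btg2 was the 1 gene that lay below WT in GluN1 and had a positive fold here, at 5.16 FPKM in GluN1Cre and 4.92 FPKM in GluN1 (log2 fold 0.07, p = 0.515 in the authors' deposited table). In this table the authors assembled 1 Btg2 model, which ended at 134079155 rather than 134082668, and its GluN1 level was 4.92 FPKM here and 4.33 FPKM in the table with WT. Nptx2 had 32.6 FPKM in GluN1Cre and 30.4 FPKM in GluN1 (log2 fold 0.10, p = 0.232 in the authors' deposited table). Log2 folds were -0.07 for Gadd45b, -0.05 for Ptgs2 and -0.0045 for Rgs2, each with p above 0.5 in the authors' deposited table.

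GluN1Cre against WT addresses how the rescued cortex compares with one whose Grin1 was never lowered. Arl4d, Nr4a2 and Trib1 fell, none rose, and the other 8 models were not called. That is 27.3% of the 11 models, against 0.841% of all 18429 tested models called in either direction and 0.478% called lower. Of the 11 folds 9 were negative and 2 positive, with a median of -0.18, against -0.0080 over all tested models, of which 53.4% were negative. Unadjusted p was under 0.05 for 4 models. With p taken from the deposited test statistic instead, 0 of the 11 were called and all 3 calls were lost. Over all tested models that statistic had a median size of 0.498 of the deviate a normal distribution gives for the same p. Which scale is right is not known, so the loss cannot decide whether the calls hold. The share of all tested models called that way was not computed, so whether the loss is particular to these genes is unknown.

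Arl4d had 7.87 FPKM in GluN1Cre against 11.955 FPKM in WT, 65.8% of the WT level (log2 fold -0.60, p = 0.0001 and q = 0.0182 in the authors' deposited table). Nr4a2 had 6.64 FPKM in GluN1Cre against 9.60 FPKM in WT, 69.2% of the WT level (log2 fold -0.53, p = 5e-05 and q = 0.0098 in the authors' deposited table). Trib1 had 4.33 FPKM in GluN1Cre against 5.79 FPKM in WT, 74.8% of the WT level (log2 fold -0.42, p = 5e-05 and q = 0.0098 in the authors' deposited table). At the same range of level 0.225%, 0.376% and 0.676% of tested models had a fold lower than that of Arl4d, Nr4a2 and Trib1 in turn. Nr4a2 and Trib1 passed here and not in GluN1 over WT, but the direct comparison of GluN1Cre with GluN1, given above, called neither, so a difference between those groups was not shown.

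Both genes have several annotated transcripts, and FPKM is summed over them. GENCODE M21 places Nr4a2 at chr2:57106830-57124003 on the minus strand with 6 transcripts, and Trib1 at chr15:59648350-59657099 on the plus strand with 2. No other annotated gene overlaps the assembled models of Arl4d, Nr4a2 or Trib1.

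Nptx2 was the highest of the 10 genes and had a fold opposite in sign to most of them, at 32.3 FPKM in GluN1Cre and 28.1 FPKM in WT (log2 fold 0.20, p = 0.0167, q = 0.731 in the authors' deposited table). It was not called, and 98.1% of models at the same range of level had a lower fold. Npas4 had 5.63 FPKM in GluN1Cre and 6.39 FPKM in WT (log2 fold -0.18, p = 0.265 in the authors' deposited table). Gadd45b, Btg2 and Ier2 had log2 folds of -0.19, -0.19 and -0.18, and Rgs2 -0.15, with p between 0.0928 and 0.245 in the authors' deposited table. Ptgs2 was flat at 3.58 FPKM in GluN1Cre and 3.59 FPKM in WT (log2 fold -0.0039). The smallest fold called at this range of level was 0.26 in size, so differences of the size seen for these genes were below what the authors' test called.

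**Figure D3:**
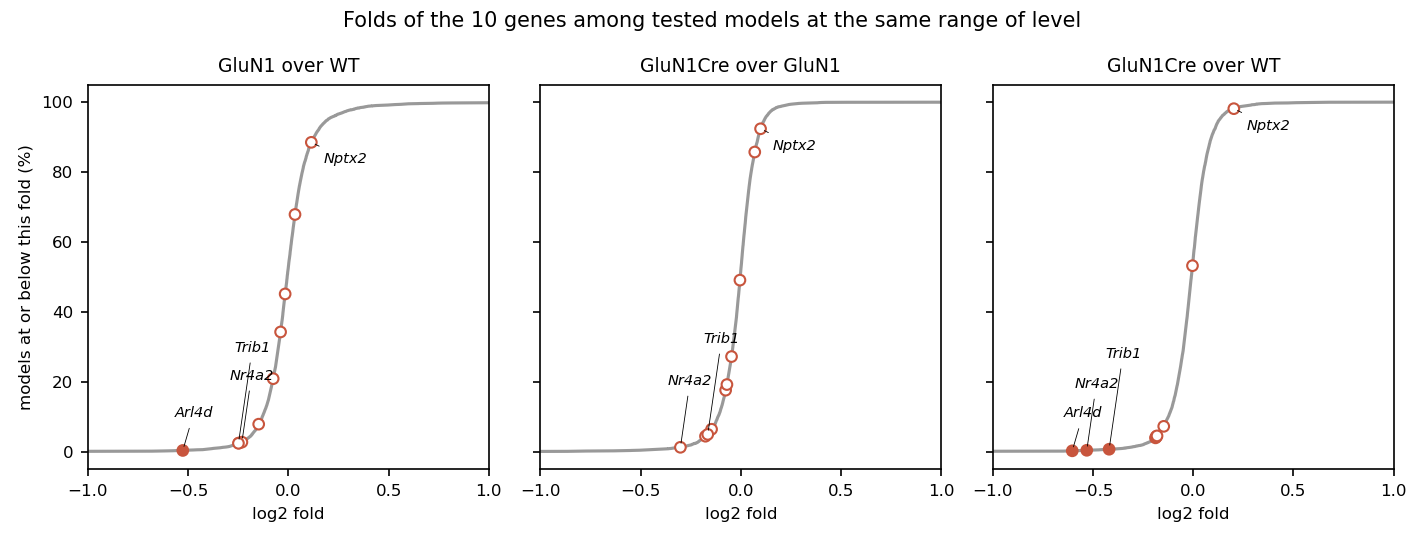
Cumulative percentage (y axis) of tested models at the same range of mean FPKM as the 10 genes by log2 fold (x axis, drawn from -1 to 1), as a grey curve per comparison; circles are the highest models of the 10 genes, filled where called. In GluN1Cre over WT the filled circles of Arl4d, Nr4a2 and Trib1 lie in the lowest 0.676% of the curve and Nptx2 near its top.

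For Ptgs2, Npas4 and Btg2 the assembled span was clearly wider than the gene. The Btg2 models in both comparisons with WT reached 3548 bases past the annotated start of the gene. The Ptgs2 models began 23370 bases before the GENCODE start and overlapped the antisense RNA gene Ptgs2os, whose reads cannot be told apart from those of Ptgs2 since use of strand is not given in the sources used here. The Npas4 models reached 11557 bases past the annotated start of the gene and overlapped another annotated model on the same strand. Assembled ends differed between tables for Gadd45b, Btg2, Nr4a2, Rgs2 and Ptgs2, and the widest table-to-table differences in level were those of Gadd45b and Btg2.

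Among direct paralogues, the other Nr4a genes fell in both comparisons with WT. Nr4a1 (Nur77) fell to 25.2 FPKM in GluN1, against 34.7 FPKM in WT (a log2 fold of -0.46, with q = 0.00456 in the authors' deposited table), and had a log2 fold of -0.56 in GluN1Cre over WT (q = 0.0098 in the authors' deposited table). Nr4a3 fell to 5.83 FPKM in GluN1, against 7.58 FPKM in WT (a log2 fold of -0.38, with q = 0.0142 in the authors' deposited table), and had a log2 fold of -0.43 in GluN1Cre over WT (q = 0.0098 in the authors' deposited table). In GluN1Cre over GluN1 their log2 folds were -0.10 and -0.04 and neither was called, beside -0.30 for Nr4a2. Btg1 and Rgs4 were called in the direction opposite to the fold of their relatives. Btg1 rose in GluN1, to 13.7 FPKM against 11.1 FPKM in WT (a log2 fold of 0.30, with q = 0.0663 in the authors' deposited table), while the main Btg2 model had -0.25 and was not called. In GluN1Cre over WT, Btg1 stood at 5.04 FPKM in GluN1Cre and 4.76 FPKM in the same WT animals, and was not called. Its level thus depended on the table. Rgs4 rose in GluN1Cre, to 180 FPKM against 150 FPKM in WT (a log2 fold of 0.26, with q = 0.0704 in the authors' deposited table), while Rgs2 had -0.15 and was not called. The main model of Nptx1 had log2 folds of -0.14 in GluN1 and -0.12 in GluN1Cre over WT, and the merged models that hold Nptxr (with Cbx6 and Npcd in the table of GluN1 over WT, and with Cbx7 as well in that of GluN1Cre over WT) had -0.11 in each, with none called. Trib2, Gadd45a and Gadd45g were not called in any comparison, and Trib3 was not tested. Of 36 models of all family relatives, partners and prostaglandin genes listed, 2 fell and 1 rose in GluN1 over WT, none was called by Cuffdiff in GluN1Cre over GluN1 (2 had an unadjusted p under 0.05), and 2 fell and 1 rose in GluN1Cre over WT.

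Some of the rapid activity-induced genes fell in both comparisons with WT. Of 21 models tested in GluN1 over WT, 7 fell, 0 rose and 14 were not called, with a median log2 fold of -0.20. Log2 folds were -0.78 for Egr2, -0.68 for Arc, -0.50 for Junb, -0.49 for Egr1 and -0.42 for Fos, with q from 0.00456 to 0.00833 in the authors' deposited table; Nr4a1, given above, and Egr4 (-0.41) were the other called models. In GluN1Cre over GluN1 Cuffdiff called none of 21 models, 2 had an unadjusted p under 0.05, and the median was -0.04. In GluN1Cre over WT 7 of 22 fell and 0 rose, at a median of -0.19, with log2 folds of -0.91 for Egr2, -0.62 for Arc, -0.59 for Junb, -0.55 for Egr1 and -0.55 for Fos (q = 0.0098 each in the authors' deposited table). Over all tested models 2.52% were called in GluN1 over WT, 0.689% in GluN1Cre over GluN1 and 0.841% in GluN1Cre over WT. These shares are the background for the counts of every list given here.

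Genes of a further list, of delayed activity-induced genes, were called in both directions. Of 24 models tested in GluN1 over WT, 5 rose, 1 fell and 18 were not called; 14 folds were negative and 10 positive, with a median log2 fold of -0.01. The neuropeptide precursor and granin genes Scg2 and Vgf rose by 0.75 and 0.44, the prohormone convertase Pcsk1 by 0.25 (1 of 2 models), the cAMP-responsive regulator Crem by 0.40 and the neurotrophin Bdnf by 0.32 (1 of 2 models), with q from 0.00456 to 0.0963 in the authors' deposited table. The clock gene Per1 had a log2 fold of -0.38 (q = 0.00456 in the authors' deposited table). In GluN1Cre over GluN1 Scg2 was the 1 of 22 called and 16 of the 22 folds were negative, with -0.29 for Scg2 (q = 0.0291 in the authors' deposited table). In GluN1Cre over WT Scg2 at 0.46 and Per1 at -0.43 were the 2 of 22 called (q = 0.0098 each in the authors' deposited table). Across the 10 genes and this list, Arl4d, Nr4a2, Trib1 and Per1 were thus lower and Scg2 was higher in GluN1Cre than in WT, and Nptx2 had a positive fold in every table without being called.

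**Figure D4:**
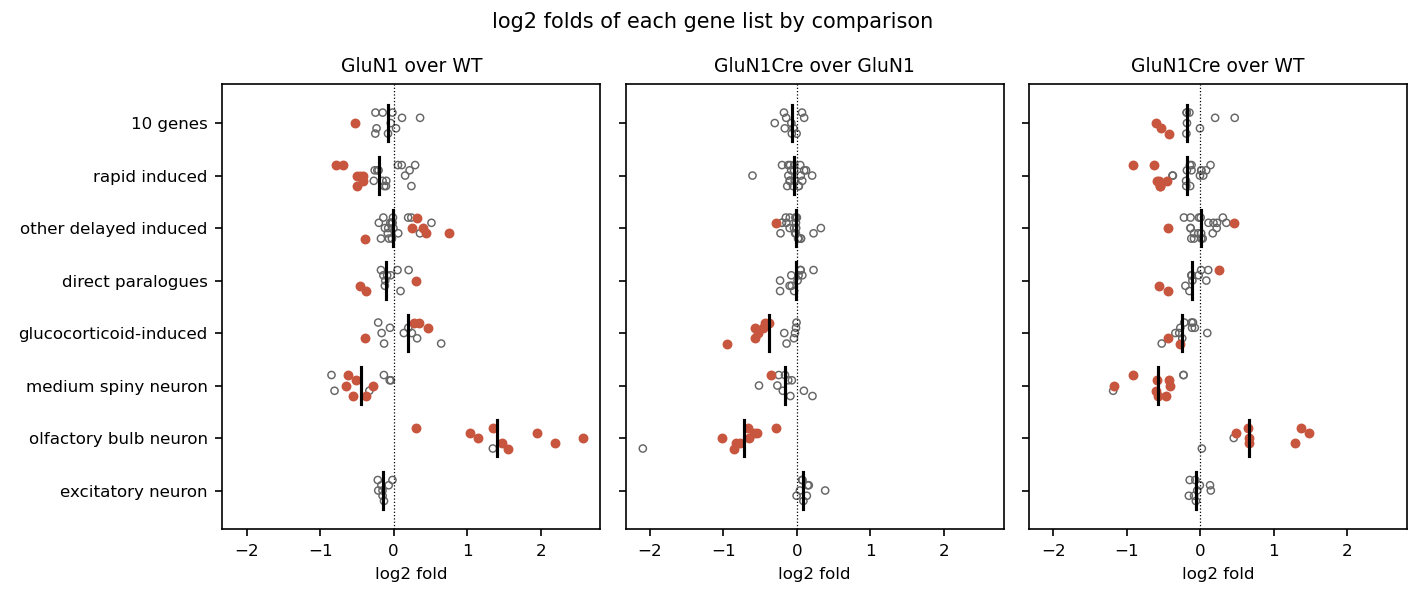
log2 folds (x axis) of every tested model of 8 gene lists (y axis) in the 3 comparisons; filled circles were called, open ones were not, and the black bar is the list's median. The 10 genes have medians of -0.08, -0.07 and -0.18, while striatal and olfactory bulb markers lie further from 0 in both comparisons with WT.

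Markers of neighbouring brain regions moved in the same libraries. Of 12 striatal medium spiny neuron models, 6 fell and 0 rose in GluN1 over WT, and their summed level was 185 FPKM in GluN1 against 217 FPKM in WT. In GluN1Cre over WT 8 of 11 fell and 0 rose, at 165 FPKM summed in GluN1Cre against 221 FPKM in WT, with a log2 fold of -1.18 for the dopamine receptor Drd2 and -0.91 for the adenosine receptor Adora2a. Of 10 olfactory bulb models 9 rose in GluN1 over WT (230 FPKM summed in GluN1, 128 FPKM in WT), 9 of 10 fell in GluN1Cre over GluN1 (160 against 228 FPKM), and 7 of 9 rose in GluN1Cre over WT (159 against 128 FPKM). In GluN1Cre over GluN1 the enkephalin precursor Penk was the 1 of 11 striatal models that fell, with 167 FPKM summed in GluN1Cre against 190 FPKM in GluN1. The summed striatal markers thus had the same order of groups as Arl4d, Nr4a2 and Trib1, and their part in the levels of these genes was not tested. Glucocorticoid-induced genes (3 of 13 rose and 1 fell in GluN1 over WT) fell in GluN1Cre over GluN1, with 7 of 13 called and a median of -0.38, beside 0 calls among the 10 genes. In GluN1Cre over WT 2 of 13 fell. Per1, which is also in the delayed list above, was the 1 that fell in GluN1 over WT and 1 of the 2 in GluN1Cre over WT. Interneuron markers rose in 3 of 8 models in GluN1 over WT and had no call otherwise. In GluN1 over WT 5 of their folds were positive and 3 negative, with a median of 0.09. Astrocyte markers rose in 2 of 6, fell in 1 of 6 and rose in 1 of 6 models in the comparisons of GluN1 over WT, GluN1Cre over GluN1 and GluN1Cre over WT. The excitatory neuron, oligodendrocyte, microglial and brain endothelial lists had no model called by Cuffdiff in any comparison, and between 0 and 3 models per list and comparison had an unadjusted p under 0.05. All 8 excitatory neuron models had negative folds in GluN1 over WT (median -0.15, beside -0.08 for the 10 genes), 8 of 9 had positive ones in GluN1Cre over GluN1 (median 0.09) and 7 of 9 negative ones in GluN1Cre over WT (median -0.06). All 9 endothelial models had positive folds in GluN1 over WT and in GluN1Cre over WT (medians 0.15 and 0.16). The part of these shifts in the levels of the 10 genes was not tested. In bulk tissue, fewer cells of a type and less RNA per cell cannot be told apart.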

How the data were processed

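Per the series' design text the authors processed the reads with the Tuxedo programs on a Galaxy server; alignment and assembly tools named in the submitters' processing notes are TopHat2 (version 2.1.0) and Cufflinks (version 2.2.1.0), with Cuffdiff (version 2.2.1.3) for testing, on GRCm38, also called mm10. The authors deposited 3 Cuffdiff tables with, per the file headers, an FPKM per group, a log2 fold, a p-value, a q-value and Cuffdiff's own test score for each gene model. The tables name the groups WT, NR1 and NR1Cre; the sample labels tie each table to its groups. Depth per sample is unknown. Here log2 folds were recomputed from the deposited FPKM values without a pseudocount, since a spreadsheet had damaged part of the deposited log2 folds of GluN1Cre over GluN1. Tested models were those with status OK. Rows were chosen by symbol, and a gene counts once per model. Coordinates were written 1-based on GRCm38. Calls, shares and medians were computed with Python 3.11.15, numpy 2.4.6, pandas 2.3.3 and scipy 1.17.1, and the steps were tested on simulated data.

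The members and lists were chosen with earlier results of these data known, so no p is given over a list. Named genes are Grin1, the 10 genes, their direct paralogues and, per list and comparison, up to 6 called genes by smallest q and then by size, or up to 3 for cell type lists. Alternatives were a level filter, the highest model per gene, stricter thresholds, p from the deposited statistic, pseudocounts of 0.1 and 1, centred folds and folds rebuilt from the other 2 tables.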

Additional observations from a re-analysis of the deposited data

How the results depend on the processing

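The count of called models of the 10 genes (1, 0 and 3 in GluN1 over WT, GluN1Cre over GluN1 and GluN1Cre over WT) was the same with a mean FPKM of at least 1, with the highest model per gene and at q under 0.05. With p taken from the deposited test statistic, it was 0 in all 3 comparisons. That statistic has a median size of 0.497 to 0.498 of the deviate a normal distribution gives for the same p. Which scale is right is not known, so this alternative cannot decide whether the calls hold. The share of all tested models called that way was not computed. A Bonferroni adjustment also left 0, which the smallest deposited p of 5e-05 makes unavoidable over 18417 or more models. Median folds kept their sign under all 6 alternatives run, at -0.07 to -0.13, -0.06 to -0.09 and -0.15 to -0.18. Single folds, 120 in all, were recomputed with pseudocounts, centring or the other 2 tables, without a new p. A pseudocount added to both groups cannot change the sign of a fold, so those folds could not test it. Of the 30 centred folds 29 kept their sign and 1 changed it: Ptgs2 in GluN1Cre over WT, near 0 at 0.0078. Of the 30 rebuilt from the other 2 tables, which hold the same animals, 29 kept it. The 1 that changed was Rgs2 in GluN1Cre over GluN1, near 0 at 0.00099. With the level filter, which changes the adjusted p and not the fold, all 30 kept their side of the threshold. No paired analysis was possible because the tables hold 1 value per group, and for the same reason no animal could be left out.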
